A study of Mus musculus with 18 samples.

Results

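Circular RNAs of Adar2KO brains were set against those of wild type brains on Illumina. A circular RNA, called a circle below, is closed where a splice donor joins an acceptor that lies before it in the gene, and reads across this back-splice junction identify it. The circles described are all those with 5 or more back-splice reads in at least 3 of the 6 libraries, which left 31378 of the 176422 circles listed in any of them. Adar2KO mice had the genotype Adar2-/-Gria2R/R, so they lacked ADAR2, the editing enzyme encoded by Adarb1, and carried 2 copies of the R allele of Gria2, a gene for an AMPA receptor subunit. Wild type mice had neither change. All mice were males of 3 to 4 months on the C57BL/6J background, whole brain was the tissue, and each genotype had n = 3 libraries from biological replicates. Loss of ADAR2 and the Gria2 allele came together in every Adar2KO mouse, so their effects cannot be told apart. ONT data of wild type replicate 1 were not analysed here.

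ADAR2 converts adenosine to inosine in double-stranded RNA. Circles often form where inverted repeats in the introns on both sides of an exon block pair with each other, and ADAR enzymes are known to edit such pairs and to alter circle formation. Circles have no free ends, withstand the exonuclease RNase R and accumulate in brain, where many come from genes of neurons and synapses.

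The junctions below belong to some of the circles that passed, and to a further Gabra2 circle, all from coding exons. They are shown because several circles of Gabra2 and Wdr49 share an end that can be read in the letters, or because a genotype had few or no reads across the junction. Each line gives the last 15 bases before the junction in lower case and the first 15 bases of the first exon after it in capitals, on the gene's own strand. The letters come from GENCODE M21 transcripts on GRCm38, matched to the circles by gene and by the span between exon ends and not by coordinates, and exon numbers below follow those transcripts.
Dennd1b, exons 4 to 5: tttatgtattcttagGAAGTTCTGCAGAGC
Gabra2, exons 5 to 8: caagaactgtgtttgGAGTATACAATAGAT
Gabra2, exons 5 to 9: gtagtcaatgacaagGAGTATACAATAGAT
Gabra2, exons 4 to 8: caagaactgtgtttgACAGTATTACTGAAG
Gabra2, exons 4 to 7: ttaaatccagtacagACAGTATTACTGAAG
Chchd6, exons 3 to 4: cagtcagctcgactaACGTTAAAGTGCCCA
Fstl5, exons 7 to 8: tcttccaagtgaatgAGGTGATCCAGTTGA
Wdr49, exons 4 to 6: tgtaggctgggagagGTTTTGAGACTCTGG
Wdr49, exons 5 to 6: tgtaggctgggagagGTAATCAGCTCTGAT
Cabin1, exons 27 to 29: accaatttcttcaacACCGAAGCCAGGACA
Lrba, exons 5 to 22: atcacacattcaaagCCTCCTCACGCTGGG
The pairs of Gabra2 circles that start at exon 5 and at exon 4 each share their capitals, and both Wdr49 circles share their last exon. Of 43 circles looked up, 37 were matched, and 36 of these had the same exon blocks in the Oxford Nanopore (ONT) reads of the same study.

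The 3 Adar2KO libraries held 2273787 to 3109401 back-splice reads over 66561 to 71505 circles, and the 3 wild type libraries held 1516772 to 3169249 over 54244 to 76743. Coordinates are those of the deposited tables, on GRCm39. Values below are back-splice reads scaled to 1000000 per library after TMM normalization (CPM) unless they are called reads. A circle that was not listed for a library was given 0 reads there. A value of 0 can therefore mean that the caller did not list the circle, and is not a measured absence. Folds given below as at least some value apply to the listed Illumina reads and are no lower bound on the difference in RNA. Of the tested circles, 18628 (59.4%) had reads in all 6 libraries. Spearman correlations between libraries over tested circles were 0.632 to 0.665 within Adar2KO, 0.618 to 0.647 within wild type and 0.590 to 0.659 between them. By the read names in the deposited CIRI2 tables, 87.4% of the junction reads of Adar2KO replicate 3 shared a flow cell with all those of the 3 wild type libraries, while 90.1% and 95.8% of those of Adar2KO replicates 1 and 2 lay on another. Flow cell and genotype therefore cannot be told apart for these 2 libraries, and values within the shared flow cell stand beside the results. That fit counts CIRI2 junction reads, sets 1 Adar2KO library against 3 wild type libraries and assumes that the lone library varies as the others do.

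Few circles passed the test. Of the 31378 tested, 10 circles of 8 genes rose in Adar2KO (0.0319%) and 9 circles of 6 genes fell (0.0287%) at an adjusted p under 0.05 in edgeR's quasi-likelihood test. At an unadjusted p under 0.05 there were 1878 circles (5.99%). The groups did not overlap for 1913 circles that were higher in Adar2KO (6.1%) and 1685 that were lower (5.37%). The filter was passed through Adar2KO libraries alone by 457 tested circles and through wild type libraries alone by 236. Groups tend to be apart in such circles because of the filter, so the 2 directions cannot be compared by these counts. The median log2 fold change of all tested circles was 0.03, with quartiles of -0.46 and 0.55. All 19 circles that passed were among the 7845 circles of highest mean CPM. The biological coefficient of variation common to all circles was 0.721, so a low circle had to differ many-fold to pass. In 10 of the 19, all 3 libraries of a genotype had 0 reads.

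**Figure D1:**
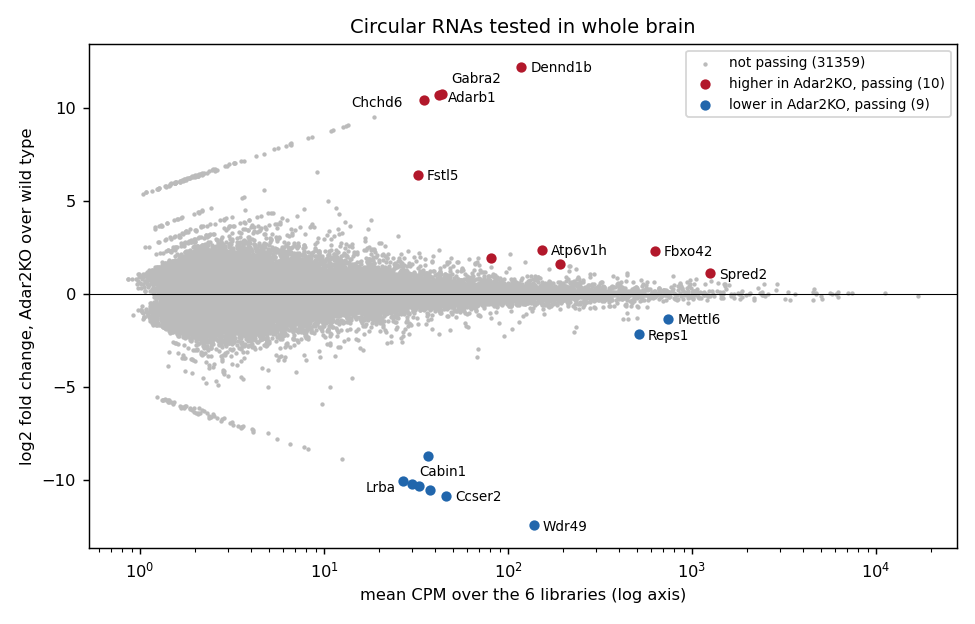
Each point is a tested circle, with its mean CPM over the 6 libraries on the log x axis and its fitted log2 fold change, Adar2KO over wild type, on the y axis. The 10 rises (red) and 9 falls (blue) that passed all lie at high CPM, and the slanted rows at the top and bottom are circles with 0 reads in a genotype, whose fitted value depends on the prior count and is no measured fold.

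Adarb1, the gene of the missing enzyme, gave a circle that was read in Adar2KO alone. This circle, chr10:77130537-77148360, had 177, 239 and 236 reads in Adar2KO libraries and 0 in wild type libraries, at least 193-fold higher (edgeR, adjusted p = 0.00908). ONT gave 41, 38 and 27 reads in Adar2KO and 0 in both wild type libraries. Another Adarb1 circle, chr10:77146940-77158464, which covers exons 4 to 8, had 0 reads in Adar2KO and 26, 18 and 8 in wild type. It did not pass as a circle (edgeR, adjusted p = 0.445). Summed over all its circles Adarb1 reached 121, 157 and 111 CPM in Adar2KO and 62.9, 43.7 and 55.4 CPM in wild type, which does not overlap but did not pass among hosts (edgeR, adjusted p = 0.14). Which exons the mutant allele lacks is not given in the sources used here, so these Adarb1 circles do not check the genotype labels.

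The rise of lowest p among circles with 0 wild type reads was a Dennd1b circle, chr1:138967738-138969781, made of 2 exons that span 170 bases once spliced. Dennd1b encodes an exchange factor for the trafficking protein Rab35. The circle had 626, 570 and 657 reads in Adar2KO libraries and 0 in each wild type library (edgeR, adjusted p = 0.000534). By listed Illumina reads it was at least 548-fold higher against a floor of 3 reads over the wild type group. The groups did not overlap. On ONT it had 184, 152 and 173 reads in Adar2KO libraries and 48 and 34 in the 2 wild type libraries used, so both genotypes were read there. Dennd1b had 31 tested circles, and their sum did not follow the circle that rose, with 5393, 5492 and 4289 CPM in Adar2KO and 6096, 3782 and 4421 CPM in wild type (host log2 0.08, edgeR, adjusted p = 0.94).

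Gabra2, which encodes a subunit of the GABA-A receptor, gave 3 of the 10 rises. Its circle of exons 5 to 8, chr5:71163450-71171979, had 256, 163 and 276 reads in Adar2KO libraries and 0 in wild type libraries, at least 205-fold higher (edgeR, adjusted p = 0.00738). Longer by an exon, the Gabra2 circle of exons 4 to 8, chr5:71163450-71192140, had 766, 585 and 945 reads in Adar2KO and 299, 223 and 137 in wild type, a log2 fold change of 1.63 ± 0.21 (SE; edgeR, adjusted p = 0.0259). Since wild type libraries were shallower on average, the CPM show the step better, with 294, 257 and 316 in Adar2KO and 95.1, 99 and 86.2 in wild type. That of exons 4 to 7, chr5:71165266-71192140, averaged 128 ± 7.68 CPM in Adar2KO and 32.7 ± 5.6 CPM in wild type (edgeR, adjusted p = 0.0462). A further circle from exon 5, exons 5 to 9, had 67, 47 and 63 reads in Adar2KO and 0 in wild type but did not pass as a circle (edgeR, adjusted p = 0.104). The 2 circles that start at exon 5 thus had no wild type reads on Illumina, and none in the wild type ONT libraries either, while circles that start at exon 4 were read in both genotypes. The least read of these, chr5:71130768-71192140, overlapped between the groups, at 17.6, 16.3 and 5.35 CPM in Adar2KO and 11.1, 6.22 and 14.5 CPM in wild type. Whether the genotypes differed in sequence at Gabra2, or at other genes away from Adarb1 and Gria2, was not tested.

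The other rises came from 5 genes. Chchd6, a gene for a subunit of the complex that shapes mitochondrial cristae, gave a circle of exons 3 to 4, chr6:89544569-89546394, with 246, 138 and 162 reads in Adar2KO and 0 in wild type (edgeR, adjusted p = 0.0168). It was at least 161-fold higher on Illumina, yet ONT read it in both genotypes, with 11, 7 and 10 reads in Adar2KO and 5 and 2 in wild type. Fstl5, a follistatin-like gene, gave a circle of exons 7 to 8, chr3:76389532-76443671, with 199, 106 and 208 reads in Adar2KO and 2, 1 and 2 in wild type. Reads pooled over each genotype and divided by its pooled scaled library sizes gave a ratio of 91, with a 95% counting interval of 38.7 to 281 (edgeR, adjusted p = 0.000534). The circle of Fbxo42, which encodes the substrate-binding part of a ubiquitin ligase, was read in every library of both genotypes. It stood at 1036, 1166 and 939 CPM in Adar2KO and at 232, 215 and 181 CPM in wild type, a log2 fold change of 2.32 ± 0.17 (SE; edgeR, adjusted p = 0.000534). Atp6v1h, a gene for a subunit of the vacuolar proton pump, gave a circle with 182, 240 and 344 CPM in Adar2KO and 58.5, 40.4 and 49.7 CPM in wild type (log2 2.36 ± 0.30, edgeR, adjusted p = 0.0259). The smallest rise that passed was that of Spred2, an inhibitor of Ras signalling, at 1707 ± 184 CPM in Adar2KO and 792 ± 131 CPM in wild type (SD, n = 3 each; log2 1.11 ± 0.15, edgeR, adjusted p = 0.0414). None of these groups overlapped.

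The rises differed in how far they rested on single libraries. Dennd1b, Fstl5 and Fbxo42 passed in each fit without 1 library that still tested them, with an adjusted p of at most 0.00955, 0.0227 and 0.0265. For Dennd1b and Fstl5 these were the 3 fits without a wild type library. Circles with 5 or more reads in the libraries of a single genotype alone left the test when a library of that genotype was left out. For such rises and falls, the spread within the genotype that was read was therefore not tried. In edgeR the Gabra2 circle of exons 5 to 8 missed the threshold without wild type replicate 1 (adjusted p = 0.0512), and the Adarb1 circle missed it without wild type replicate 1 or 2 (adjusted p up to 0.0615). Chchd6 missed it without any of the 3 wild type libraries (adjusted p up to 0.118). Atp6v1h, Spred2 and the 2 Gabra2 circles from exon 4 missed it without any of the 6 libraries, with an adjusted p up to 0.293, 0.466, 0.356 and 0.266. Within the shared flow cell the log2 fold change was 2.02 for Fbxo42, 2.84 for Atp6v1h, 1.76 and 1.88 for the Gabra2 circles from exon 4, 1.23 for Spred2 and 5.89 for Fstl5, and of these Fstl5 passed there (edgeR, adjusted p = 0.0075). The rises with 0 wild type reads had an adjusted p of 0.087 to 0.189 within it.

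Among the falls were 2 Wdr49 circles. Wdr49 encodes a WD repeat protein. Its circle of exons 4 to 6, chr3:75265654-75304408, had 0 reads in each Adar2KO library and 1039, 554 and 403 in wild type libraries, at least 750-fold lower (edgeR, adjusted p = 0.000534). ONT gave 0 reads in the 3 Adar2KO libraries and 64 and 47 in the wild type libraries. The circle of exons 5 to 6, chr3:75265654-75289386, had 0, 1 and 0 reads in Adar2KO and 372, 90 and 96 in wild type (edgeR, adjusted p = 0.0259). On ONT the shorter circle had 0 reads in Adar2KO and 9 and 14 in wild type, so both platforms parted the genotypes at Wdr49. In edgeR the longer circle passed without each Adar2KO library and within the shared flow cell (adjusted p = 0.0391), while the shorter missed the threshold without any Adar2KO library (adjusted p up to 0.202).

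Ccser2, a coiled-coil serine-rich protein gene, gave 3 falls, and these 3 circles share exon 2 as their first exon. Exons 2 to 4 formed the circle chr14:36648796-36663221, with 0 reads in Adar2KO and 371, 180 and 124 in wild type (edgeR, adjusted p = 0.00738), at least 254-fold lower. Its shorter neighbour of exons 2 to 3, chr14:36660541-36663221, had 0 reads in Adar2KO and 190, 150 and 111 in wild type (edgeR, adjusted p = 0.00908). The third, of exons 2 to 5, chr14:36640391-36663221, had 0 reads in Adar2KO and 160, 147 and 73 in wild type (edgeR, adjusted p = 0.0166). On Illumina the groups were apart in all 3, but ONT found each of them in every Adar2KO library, for example with 18, 25 and 10 reads in Adar2KO and 20 and 15 in wild type for exons 2 to 4. In edgeR the calls of the first pair were lost without Adar2KO replicate 1 (adjusted p = 0.0587), and that of exons 2 to 5 without any Adar2KO library (adjusted p up to 0.087).

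Cabin1 and Lrba showed the same contrast between platforms. Cabin1 encodes an inhibitor of the phosphatase calcineurin, and its circle of exons 27 to 29, chr10:75520126-75535929, had 0 reads in Adar2KO and 235, 163 and 125 in wild type (edgeR, adjusted p = 0.00738). ONT gave this Cabin1 circle 32, 23 and 41 reads in Adar2KO and 18 and 3 in wild type. This call was lost without Adar2KO replicate 1 (edgeR, adjusted p = 0.0587). Lrba encodes a large vesicle trafficking protein, and its circle of exons 5 to 22, chr3:86198734-86235663, had 0 reads in Adar2KO and 177, 178 and 73 in wild type (edgeR, adjusted p = 0.0168), with a call lost without any Adar2KO library (adjusted p up to 0.0935). On ONT the Lrba circle had 16, 11 and 12 reads in Adar2KO and 15 and 9 in wild type. Within the shared flow cell none of the Ccser2, Cabin1 and Lrba circles passed (edgeR, adjusted p from 0.087 to 0.163). The cause of the difference between platforms was not tested.

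The other 2 falls were of circles that both genotypes held. Mettl6, which encodes a transfer RNA methyltransferase, gave a circle at 403, 482 and 376 CPM in Adar2KO and 1166, 952 and 1091 CPM in wild type, a log2 fold change of -1.35 ± 0.16 (SE; edgeR, adjusted p = 0.0155). The Mettl6 call was lost without any wild type library, without Adar2KO replicate 1 and without Adar2KO replicate 3 (adjusted p up to 0.214), and the value within the shared flow cell was -1.54. Reps1, a gene of endocytosis, gave a circle at 159, 201 and 198 CPM in Adar2KO and 799, 828 and 901 CPM in wild type (log2 -2.18 ± 0.17, edgeR, adjusted p = 0.000781). The Reps1 fall depended on the read caller. In the CIRI2 tables of the same libraries this circle had 2043, 2332 and 2889 reads in Adar2KO and 2719, 2197 and 1502 in wild type, and its log2 fold change was 0.02 (edgeR, adjusted p = 0.987), with 0.09 within the shared flow cell. CIRI2 counts kept the other 18 of the 19 calls.

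**Figure D2:**
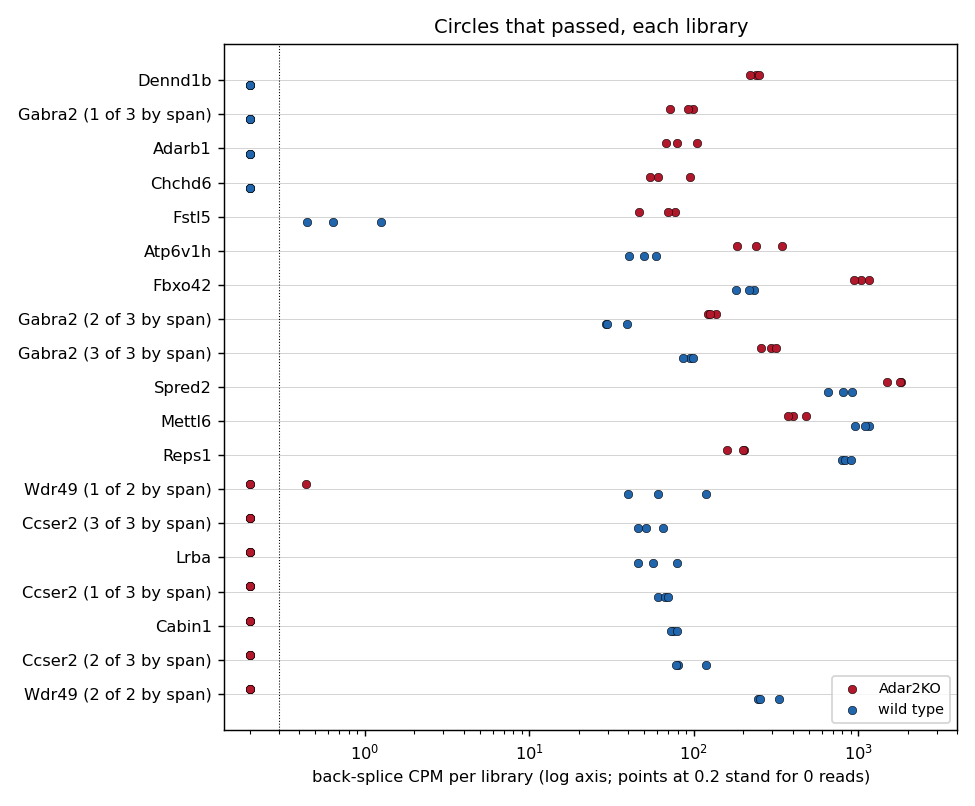
Each row is a circle that passed, with its CPM in the 3 Adar2KO libraries (red) and the 3 wild type libraries (blue) on a log axis. Points left of the dotted line stand for 0 reads, and no row has overlapping groups.

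Among circles that missed the threshold, some of those of lowest p also had 0 reads in a genotype, and others were read in both. Of the higher ones, a Mycbp2 circle, chr14:103528454-103536299, had 66, 112 and 113 reads in Adar2KO and 0 in wild type (edgeR, adjusted p = 0.0626). Mycbp2 encodes a large ubiquitin ligase of axons. A Shld2 circle of exons 3 to 4 had 73, 55 and 80 reads in Adar2KO and 0 in wild type (edgeR, adjusted p = 0.0699). Shld2 encodes a DNA end protection factor of the shieldin complex. Circles of Rbfox3, the gene of the neuronal marker NeuN, and Nnt, a mitochondrial transhydrogenase gene, averaged 19.4 ± 6.37 and 35.2 ± 4.58 CPM in Adar2KO against 1.77 ± 0.835 and 5.63 ± 2.27 CPM in wild type (SD, n = 3 each). Their adjusted p in edgeR was 0.111 and 0.12.

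The lower circles that missed it were led by Amt, a gene of the glycine cleavage system, at 27.6, 7.91 and 12 CPM in Adar2KO and 148, 104 and 113 CPM in wild type (edgeR, adjusted p = 0.0546). Map2k1, the gene of the kinase MEK1, followed with 36, 38.7 and 24.8 CPM in Adar2KO and 193, 106 and 174 CPM in wild type (edgeR, adjusted p = 0.0563). As for Reps1, the CIRI2 reads of the Map2k1 circle did not part the genotypes, with 447, 429 and 576 in Adar2KO and 655, 284 and 303 in wild type. A Paip1 circle had 14, 16 and 18 reads in Adar2KO and 122, 79 and 64 in wild type by CIRIquant, but 105, 92 and 114 in Adar2KO and 140, 80 and 63 in wild type by CIRI2. Paip1 encodes a binding partner of the poly(A) binding protein and lies beside Nnt.

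Summed over all circles of a gene, 7663 host genes were tested, and 4 rose in Adar2KO (0.0522%) while 7 fell (0.0913%). At an unadjusted p under 0.05 there were 541 hosts (7.06%), and the groups did not overlap for 486 higher hosts (6.34%) and 441 lower hosts (5.75%). The median host had a log2 fold change of 0.01. Scaling by all mapped reads in place of back-splice reads moved this median to 0.19 and gave 7 rises and 4 falls, so the split between directions depended on the scaling. That scaling ended the calls of Spred2, Mettl6, Reps1 and Map2k1.

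Chchd6 averaged 70.8 ± 20.4 CPM in Adar2KO and 1.3 ± 1.13 CPM in wild type, and Fbxo42 averaged 1048 ± 128 CPM in Adar2KO and 231 ± 19.3 CPM in wild type (SD, n = 3 each). Gabra2 averaged 546 ± 37.8 CPM in Adar2KO and 146 ± 6.17 CPM in wild type, and Spred2 1846 ± 144 CPM in Adar2KO and 947 ± 145 CPM in wild type. Their log2 fold changes were 5.68, 2.18, 1.90 and 0.96, with an adjusted p in edgeR of 0.000216, 0.000105, 0.000258 and 0.0248. All 5 tested Gabra2 circles were higher in Adar2KO, and it was the only one of the 4 with more than 4 tested circles. Spred2 lost its call when replicates 1 or 3 of Adar2KO, or replicates 1 or 2 of the wild type, were left out (edgeR, adjusted p up to 0.201), while the other 3 hosts kept theirs without each of the 6 libraries. Within the shared flow cell the log2 fold changes were 5.36, 1.84, 1.89 and 1.01, and Spred2 did not pass there (edgeR, adjusted p = 0.0918).

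The largest host fall was that of Wdr49, at 3.81, 10.7 and 8.92 CPM in Adar2KO and 458, 304 and 332 CPM in wild type (log2 -5.56 ± 0.33, edgeR, adjusted p = 2.05e-05). Ccser2 followed at 36.9, 51.7 and 55.8 CPM in Adar2KO and 279, 240 and 225 CPM in wild type (log2 -2.37 ± 0.23, edgeR, adjusted p = 0.000573). Both kept their calls without each of the 6 libraries and within the shared flow cell, where the values were -6.01 and -1.97. Amt averaged 18 ± 10.5 CPM in Adar2KO and 127 ± 22.7 CPM in wild type (edgeR, adjusted p = 0.00466), a call lost within the shared flow cell (log2 -2.15, edgeR, adjusted p = 0.0779). Mettl6 averaged 438 ± 64.7 CPM in Adar2KO and 1131 ± 90.5 CPM in wild type (edgeR, adjusted p = 0.0024). The predicted gene Gm42339 was read at 421, 427 and 147 CPM in Adar2KO and 1445, 1435 and 1374 CPM in wild type, with Adar2KO replicate 3 far below the other two (edgeR, adjusted p = 0.022). Its call was lost when Adar2KO replicate 1, or either of wild type replicates 1 and 2, was left out (edgeR, adjusted p up to 0.113).

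The last pair of host falls, Reps1 and Map2k1, depended on the read caller. Reps1 averaged 462 ± 22.5 CPM in Adar2KO and 1133 ± 88 CPM in wild type with CIRIquant counts (log2 -1.29, edgeR, adjusted p = 0.00163), but its log2 fold change was -0.01 with CIRI2 counts and 0.02 within the shared flow cell. Map2k1 averaged 79.3 ± 8.93 CPM in Adar2KO and 218 ± 39.8 CPM in wild type (log2 -1.46, edgeR, adjusted p = 0.022), with 0.000195 and 0.00266 in these settings, and it lost its call when any library but wild type replicate 2 was left out (adjusted p up to 0.144). Of 11 host calls, 9 were kept with CIRI2 counts.

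Of the 6 hosts with most tested circles none passed. Rims2, an active zone gene with 75 tested circles, reached 11369 ± 599 CPM in Adar2KO and 11307 ± 685 CPM in wild type (SD, n = 3 each). Lrp1b, Nbea, Adgrb3, Agtpbp1 and Ptk2 had 52 to 71 tested circles, and their log2 fold changes ran from -0.04 to 0.36, the highest in Ptk2 at 5301 CPM in Adar2KO and 4124 CPM in wild type (edgeR, unadjusted p = 0.0538). The most read circle of the whole set, the Zfp609 circle of 874 bases, held 16340 ± 1867 CPM in Adar2KO and 17487 ± 2472 CPM in wild type.

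Whether a circle moved against the other circles of its gene was tested for 28184 circles in 4220 hosts. Relative to wild type, 13 circles in Adar2KO held a higher part of their host (0.0461%) and 11 a lower part (0.039%), and 534 stood at an unadjusted p under 0.05 (1.89%). These 24 circles came from 15 genes, and 20 of them had 0 reads in a genotype. Of the 24, 9 also passed as circles. A limma fit of the log2 ratio of a circle to the rest of its host called 21 circles, of which 18 were shared.

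Ccser2 had calls in both directions. Its 3 circles that begin with exon 2 held 0% of the host's back-splice reads in Adar2KO, against 38.0%, 27.8% and 22.8% in wild type, and kept these calls without each Adar2KO library. The exon 4 to 5 circle, chr14:36640391-36648886, held 66.3% in Adar2KO and 4.54% in wild type, at 26.4, 32.5 and 36.1 CPM in Adar2KO and 17.2, 4.89 and 11.3 CPM in wild type. Its part of the host rose by 3.85 on the log2 scale (edgeR, adjusted p = 0.00363), a call lost without any wild type library, whereas as a circle it did not pass (edgeR, adjusted p = 0.667).

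Shld2 exchanged circles around exon 4. Its exon 3 to 4 circle held 32.3% of the host's reads in Adar2KO and 0% in wild type, while the circle of exons 4 to 5 held 0.751% in Adar2KO and 34.7% in wild type, and both calls passed (edgeR, adjusted p = 0.000683 and 0.00485). A circle of the same gene that spans 22317 bases held 0% in Adar2KO and 19.5% in wild type. The calls of both Shld2 circles that were lower were lost without any Adar2KO library. On ONT the circle of exons 3 to 4 had 16, 17 and 32 reads in Adar2KO and 0 in both wild type libraries, while that of exons 4 to 5 had 0 in Adar2KO and 2 and 3 in wild type, so for Shld2 both platforms parted the genotypes.

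Adarb1 and Glud1 also had calls in both directions. In Adarb1 the circle chr10:77130537-77148360 held 64.6% of the host's reads in Adar2KO and 0% in wild type, and the circle of exons 4 to 8 held 0% in Adar2KO and 14.0% in wild type, with a call for the second that was lost without any Adar2KO library. In Glud1, which encodes glutamate dehydrogenase, the circle of exons 2 to 7 held 5.9% in Adar2KO and 0% in wild type, and the circle of exons 6 to 11 held 0.131% in Adar2KO and 13.4% in wild type. Mycbp2 had 2 higher circles, of exons 5 to 10 and exons 11 to 14, each with 0 wild type reads. The remaining calls were a higher circle each in Dennd1b, Fstl5, Atf6, Immt and Ktn1, the 2 Gabra2 circles that start at exon 5, and a lower circle each in Cabin1, Lrba, Depdc5 and Fbxo42. Of the 24 calls, 11 were lost in at least 1 edgeR fit that left out a library and still tested them. Beside those named, Gabra2 exons 5 to 9 and Glud1 exons 2 to 7 were lost without any wild type library, Depdc5 without any Adar2KO library, and Atf6 and Ktn1 without wild type replicate 1 or 3. The Fstl5 call was lost without wild type replicate 1 (edgeR, adjusted p = 0.143) and the Fbxo42 call without Adar2KO replicate 1 (edgeR, adjusted p = 0.052).

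**Figure D3:**
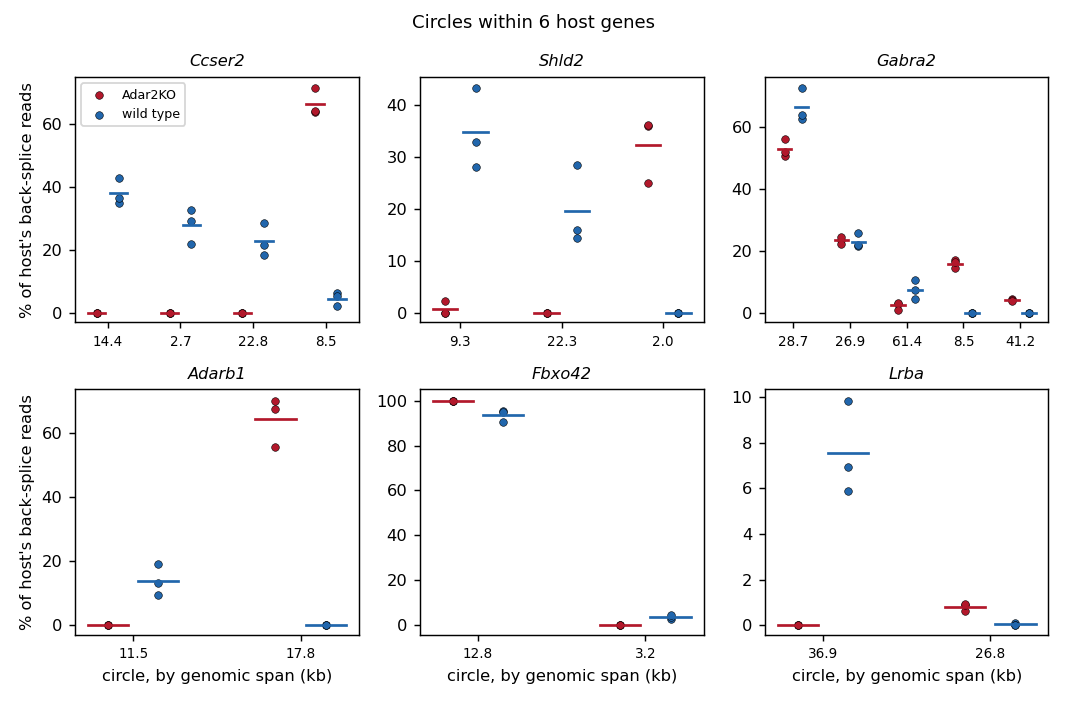
Each panel is a host gene, with its circles along the x axis by genomic span and the percent of the host's back-splice reads in each library on the y axis, Adar2KO (red) left of wild type (blue), and bars at the group means. In Ccser2 the 3 circles with 22.8% to 38.0% in wild type stand at 0% in Adar2KO, while the fourth holds 66.3% in Adar2KO and 4.54% in wild type.

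Such exchanges were rare. Among 1774 hosts with at least 100 reads in every library and several tested circles, the same circle led in the mean of both genotypes in 91.4%. Library by library, the leading circle was the same for 82.2% to 87.0% of hosts between genotypes, 84.3% to 86.4% within Adar2KO and 84.4% to 86.4% within wild type, ranges that overlap. Of 1254 hosts whose leading circle was the same in all 3 libraries of each genotype, 10 had a different one in Adar2KO than in wild type, among them Atp6v1h, Kif5c and Ncor1. In Atp6v1h the circle that rose, chr1:5159232-5168356, held 59.2% of the host's reads in Adar2KO and 17.3% in wild type, but did not pass for usage (edgeR, adjusted p = 0.7). None of the leading circles of these 10 hosts passed for usage. The median SD of log2 fold changes within hosts of 5 or more tested circles was 0.81, beside 1.04 over all circles. Of those 2040 hosts, 27 had all their circles higher in Adar2KO and 15 had all lower, such as Cdc14b with 14 circles, all higher, and a host log2 fold change of 0.40 that did not pass (edgeR, adjusted p = 0.607).

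The circular share, back-splice over forward-splice reads at the same ends, was tested for 11178 circles, and 4 were higher in Adar2KO (0.0358%) and 3 lower (0.0268%). All 7 turned on forward-splice counts of 0. The most read circle of Nbea, a gene for a scaffold of vesicle trafficking, had 0 forward-splice reads in the 3 Adar2KO libraries and 1845, 1187 and 791 in wild type libraries (limma, adjusted p = 0.00225). Its back-splice level, however, was 3421 ± 259 CPM in Adar2KO and 3220 ± 332 CPM in wild type (SD, n = 3 each). The Lrch3 circle was the converse, with 3241, 2652 and 3574 forward-splice reads in Adar2KO and 0 in wild type (limma, adjusted p = 0.0123), while its back-splice level was 11.7 ± 0.868 CPM in Adar2KO and 14.7 ± 3.68 CPM in wild type. Rprd1b, Stk39 and Eya3 circles had such zeros in Adar2KO, and Wscd2 and Astn2 circles in wild type. Forward-splice reads were 0 in 23.0% to 28.1% of these circles in each library, and among the 6233 circles with forward-splice reads in every library limma called 0 circles, with 354 at an unadjusted p under 0.05. Without Adar2KO replicate 1, 2 or 3 limma called 0 of the tested circles (481, 558 and 463 at an unadjusted p under 0.05), and without wild type replicate 1, 2 or 3 it called 76, 5 and 2.

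By class, all 19 calls were of exon circles. The deposited tables call 28375 of the tested circles exon, 2128 intron, 766 intergenic and 109 antisense, and their median log2 fold changes were 0.02, 0.11, 0.12 and 0.19. At an unadjusted p under 0.05 stood 5.83%, 6.34%, 10.2% and 9.17% of them. The most abundant intron circle, of Rims1, averaged 1336 ± 197 CPM in Adar2KO and 1556 ± 125 CPM in wild type. The most abundant antisense circle lies at Cdr1, chrX:60226854-60229780, with 103 ± 12.4 CPM in Adar2KO and 94.8 ± 30.1 CPM in wild type. Among intron circles the lowest p was that of Snord14a, a small nucleolar RNA gene, with 36, 25 and 37 reads in Adar2KO and 0 in wild type (edgeR, adjusted p = 0.232). The most abundant intergenic circle, chr16:57211522-57211944, had 336, 425 and 0 reads in Adar2KO and 422, 0 and 1512 in wild type, which shows how uneven such circles were between libraries of the same genotype.

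Circles of short span had a higher median fold change than the rest. The median log2 fold change was 0.28 for 830 circles that span under 500 bases, 0.11 from 500 to 2000, 0.06 from 2000 to 10000, -0.01 from 10000 to 50000, 0.01 from 50000 to 100000 and 0.02 above 100000. Of the circles under 500 bases, 61.8% were higher in Adar2KO, against 51.7% of all, and 58 stood higher and 21 lower at an unadjusted p under 0.05. Within exon circles the shortest span had a median of 0.27, so the difference was present within that class. None of the 830 passed in edgeR. The most abundant, a Kmt2a circle of 488 bases, had 1923, 1547 and 1746 CPM in Adar2KO and 1316, 878 and 1649 CPM in wild type, which overlap. The share of all reads in circles under 500 bases was 3.08 ± 0.485% in Adar2KO and 2.59 ± 0.486% in wild type (SD, n = 3 each), also with overlap (exact permutation test, two-sided, p = 0.3). This difference of 0.491 percentage points rested on single libraries, at 0.249 without wild type replicate 2, 0.3 without Adar2KO replicate 3 and 0.764 without Adar2KO replicate 2.

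**Figure D4:**
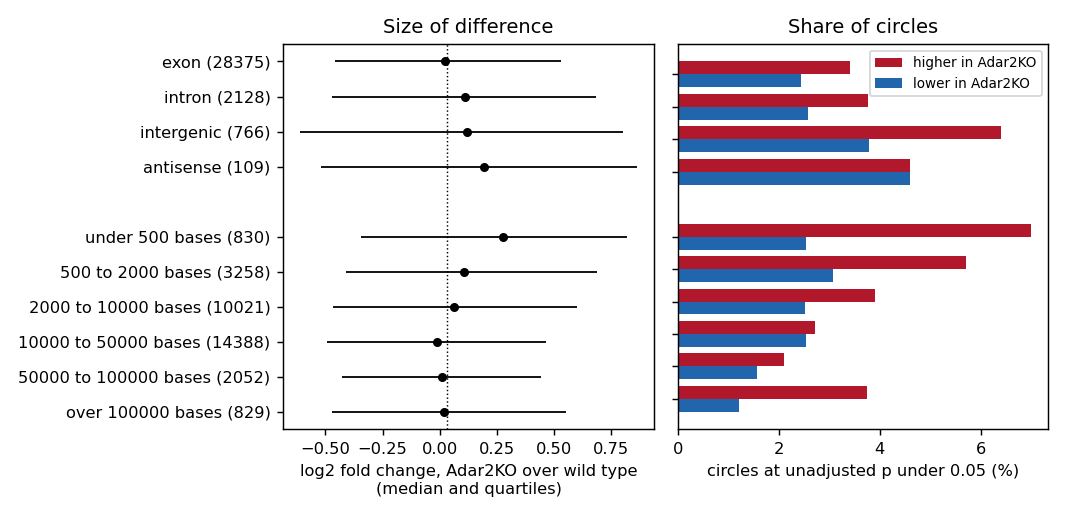
The left panel gives the median and quartiles of the log2 fold change, Adar2KO over wild type, by class and by genomic span, with numbers of circles in brackets and the median of all circles dotted. The right panel gives the percent of each group at an unadjusted p under 0.05, higher (red) above lower (blue), which for spans under 500 bases is 58 and 21 of 830 circles.

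Of 24 shares and summary measures per library, exon circles' share of reads was the only measure whose groups did not overlap, at 95.1%, 95.2% and 95.1% in Adar2KO and 95.5%, 95.2% and 95.4% in wild type. With 3 against 3 the exact two-sided permutation test cannot go below its p of 0.1, and adjusted over the 24 measures it was 0.72. The number of circles expected at the smallest depth was 60969 to 65538 in Adar2KO and 54244 to 67763 in wild type. The 10 most read circles held 7.96 ± 0.28% of reads in Adar2KO and 8.15 ± 0.32% in wild type (SD, n = 3 each).

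Calls were unevenly spread over the genome. Chromosome 14 gave 4 of the 9 falls, 3 of them overlapping circles of the single gene Ccser2, and chromosome 5 the 3 Gabra2 rises. Around the main Gria2 circle, within 10 Mb on chromosome 3, lie Fstl5, both Wdr49 circles and Lrba, that is 4 of the 19 calls among 268 tested circles, and 41 of the 268 (15.3%) stood at an unadjusted p under 0.05. The rest of that chromosome had 59 of 1193 (4.95%) and 0 calls by edgeR. Within 10 Mb of the main Adarb1 circle on chromosome 10, 25 of 240 circles (10.4%) did, and 2 of these, of Adarb1 and Cabin1, passed. The Adarb1 call is the circle on which this window is centred, so it lies inside by construction. Outside both windows 1812 of 30870 circles (5.87%) stood at p under 0.05, with 8 rises and 5 falls. Windows around other loci were not counted, so local clusters elsewhere are not excluded. Both loci carry the alleles that define Adar2KO, and the part of linked sequence in these counts was not tested.

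The Gria2 and Adar circles themselves did not pass. The main Gria2 circle of exons 3 to 5 had 28.7, 48.8 and 58.5 CPM in Adar2KO and 158, 134 and 107 CPM in wild type, groups that do not overlap (log2 -1.56 ± 0.32, edgeR, adjusted p = 0.301). All Gria2 circles together averaged 195 ± 11 CPM in Adar2KO and 324 ± 27.5 CPM in wild type. The main circle of Adar, the gene of ADAR1, had 11.5, 9.23 and 7.69 CPM in Adar2KO and 22.6, 18.2 and 6.92 CPM in wild type, which overlap.

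Of 26 gene lists, 3 held a host that passed: Gabra2 among 16 measured GABA-A receptor and gephyrin genes, Fbxo42 among 57 ubiquitin ligases and deubiquitinases and Wdr49 among 19 ependyma and choroid plexus genes. Over all hosts 0.0522% rose and 0.0913% fell, and 51.5% were higher in Adar2KO. Median log2 fold changes of the 20 lists with at least 10 measured hosts ran from -0.42 to 0.15, beside 0.01 for all hosts. AMPA and kainate receptor subunits had a median of -0.10 with 3 of 9 higher, and hosts of known recoding sites, the best known targets of ADAR2, 0.06 with 13 of 24 higher. Splicing and circular RNA regulators stood at 0.10, presynaptic genes at 0.01, postsynaptic scaffolds at -0.02 and voltage-gated channels at 0.10, all without a call. Of 131 Zfp genes 56 were higher (median -0.09) and of 123 Slc genes 76 were higher (median 0.15). Scaled by mapped reads the medians moved up, and those of AMPA and kainate receptors, postsynaptic scaffolds and Zfp genes became 0.08, 0.15 and 0.09.

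Cell type lists bear on the whole brain label. The 30 known hosts of abundant brain circles were all measured and summed to 129367 to 145145 CPM in Adar2KO and 132771 to 139788 CPM in wild type. Of 28 oligodendrocyte genes 16 were measured and 8 were at 0 in all 6 libraries, and their sum was 1664 to 1789 CPM in Adar2KO and 1588 to 1788 CPM in wild type. The 13 measured of 20 astrocyte genes, with 2 at 0, summed to 1391 to 1478 CPM in Adar2KO and 1320 to 1353 CPM in wild type, without overlap. Of 16 microglia genes 7 were measured and 6 were at 0, and their sum was 415 to 664 CPM in Adar2KO and 456 to 636 CPM in wild type. Most of this sum was the single gene Zfhx3, at 413 ± 141 CPM in Adar2KO and 437 ± 95.6 CPM in wild type (SD). It therefore says little about the other microglia genes. Many defining markers, such as Mog, Aqp4, Cx3cr1, Csf1r, Foxj1 and Ttr, had no back-splice read in any library, so these sums rest on the other genes of each list. The ependyma and choroid plexus list had 19 of 28 genes measured and 3 at 0, and summed in Adar2KO to 635 to 816 CPM, against 1135 to 1304 CPM in wild type, with 5 of 19 hosts lower without overlap and 0 higher, beside 5.75% lower and 6.34% higher without overlap over all hosts. Without Wdr49 the sums were 631 to 805 CPM in Adar2KO and 803 to 879 CPM in wild type, which just overlap. Cfap61, a gene of motile cilia, had 23.2, 35.2 and 48.9 CPM in Adar2KO and 88.6, 91.2 and 104 CPM in wild type (edgeR, adjusted p = 0.167), and Cfap47 and Spef2 were at 4.95 to 7.58 and 2.97 to 8.03 CPM in Adar2KO and 20.2 to 20.5 and 13 to 20.6 CPM in wild type. Of the 19 measured genes 7 (36.8%) were higher in Adar2KO by log2 fold change, beside 51.5% of all hosts. The largest rise, Dnah6, overlapped, at 14.5, 6.24 and 7.93 CPM in Adar2KO and 3.21, 5.12 and 9.23 CPM in wild type. The 12 measured of 18 cerebellar neuron genes summed to 2336 to 2704 CPM in Adar2KO and 2031 to 2112 CPM in wild type, without overlap. Of these 12, 7 (58.3%) were higher, beside 51.5% of all hosts. Much of this sum was Grm4, at 1316 ± 182 CPM in Adar2KO and 1054 ± 82.7 CPM in wild type (SD). Sums overlapped for endothelial and pericyte genes (115 to 170 CPM in Adar2KO and 159 to 212 CPM in wild type), striatal neuron genes (1124 to 1163 CPM in Adar2KO and 1108 to 1148 CPM in wild type) and cortical and hippocampal neuron genes (2241 to 2666 CPM in Adar2KO and 2563 to 2699 CPM in wild type). In whole brain, fewer cells of a type and less RNA per cell cannot be told apart, and the part of tissue makeup in the Wdr49 fall was not tested.

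Circles with reads in a single genotype were followed onto ONT. There were 94 circles with 5 or more reads in each Adar2KO library and 0 in wild type, and 66 with 5 or more in each wild type library and 0 in Adar2KO. They could enter the test through that genotype alone, and 4 and 6 of them are among the calls above. The deposited ONT tables list 47 of the 94, of which 10 also had reads in wild type, and 31 of the 66, of which 27 also had reads in Adar2KO. ONT depth was unequal, with 364380 to 447592 reads in the Adar2KO libraries and 186594 and 205273 in the wild type libraries used, which favours finding a circle in Adar2KO. Of the 10 calls with 0 reads in a genotype, 7 had ONT reads in that genotype, and only the Gabra2, Adarb1 and longer Wdr49 circles had none. The Illumina caller CIRI2 had 0 reads there for all 10, but it read the same libraries, so its zeros are no independent sign of absence.

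**Figure D5:**
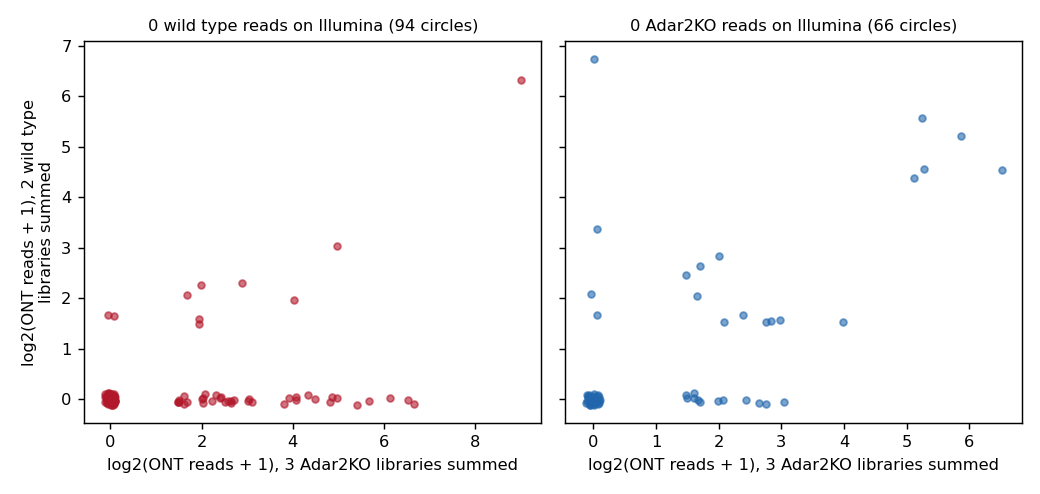
Each point is a circle that Illumina read in a single genotype, 94 in Adar2KO (left) and 66 in wild type (right), with its ONT reads summed over the 3 Adar2KO libraries on the x axis and over the 2 wild type libraries on the y axis, as log2 of reads plus 1 with a small random offset so that points can be told apart. On the left most listed circles lie on the x axis, while on the right 27 of the 31 listed circles lie right of 0, that is with Adar2KO reads.

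The authors' deposited table of this comparison holds 772 circles, all with an unadjusted p under 0.05 and 46 of them with an adjusted p under 0.05, 26 higher and 20 lower in Adar2KO. All 19 circles called here are in the authors' deposited table, 13 of them past its threshold. Its 545 circles that were tested here all had the same sign in both fits, which share the same libraries.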

How the data were processed

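RNA of whole mouse brain was depleted of ribosomal RNA, treated with RNase R, reverse transcribed with random hexamers, tagmented and sequenced as paired 150-base reads, per the labels' protocols. Reads were mapped with BWA 0.7.17 to GRCm39, per the submitters' processing notes. The deposited counts of back-splice and forward-splice reads came from CIRIquant 1.1.2, per the file headers, with 1 table per library. The deposited CIRI2 tables count junction reads and served as an alternative. The authors' deposited table of this comparison gives log2 fold changes, p-values and adjusted p-values from DESeq2 2.11.40.8, per the submitters' processing notes, and was used to set calls side by side. PCR preceded sequencing and no molecular identifiers are described, so intervals and floors cover counting error only. The fold floors take a circle that was not listed for a library as having no reads there.

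Circles with 5 or more back-splice reads in at least 3 of the 6 libraries were tested with edgeR 4.0.16 in R 4.3.3 (quasi-likelihood, TMM scaling, Benjamini-Hochberg adjustment over all tested circles, threshold 0.05). Hosts were tested on summed reads in the same way. Usage within a host was tested with edgeR's diffSpliceDGE on the legacy quasi-likelihood fit, since the current fit made more false calls on simulated counts. For the circular share, limma 3.58.1 compared the log2 ratio of both read kinds at a circle, each plus 0.5, where they summed to 20 or more in every library. Shares per library were compared by exact permutation tests, adjusted over 24 measures. DESeq2 1.42.0 was an alternative. Libraries are biological replicates per the labels, and same-numbered libraries were treated as unpaired.

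Named circles and hosts were those that passed without overlap between groups, up to 12 in each direction by size of log2 fold change, then up to 6 more with the smallest p among those that missed the threshold, the 8 of lowest p for usage and circular share, the most abundant circle and that of lowest p in each class and span, the hosts with most circles, called or abundant list members, and the most read circles of Adarb1, Gria2 and Adar. Other circles that passed for usage, the Atp6v1h lead change and the cilia genes were named after their values were seen. The members and lists were chosen with earlier results of these data known.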

Additional observations from a re-analysis of the deposited data

How the results depend on the processing

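Circle calls numbered 19 in the fit reported, 305 with no filter on low counts and 112 with DESeq2. They numbered 6 with the spread shared over all 9 Illumina libraries and 3 to 10 when a library was left out. The 9 include 3 libraries of the genotype Adar1-2KO, of which replicate 3 listed 21736 circles from 4308264 back-splice reads. Part of the drop without a library comes from circles that needed it to pass the filter and were no longer tested. No filter and DESeq2 kept all 19 circles, CIRI2 counts kept 18 and the shared flow cell kept 2. Host calls numbered 11, with 91 under no filter, 40 with DESeq2, 6 over all 9 libraries and 10 to 16 without a library. Usage calls numbered 24, with 76 under no filter, 55 with the current quasi-likelihood fit, which was chosen after seeing the data, 6 over all 9 libraries, 57 within the shared flow cell and 12 to 24 without a library. Circular share calls numbered 7, with 28 at an adjusted p under 0.1, 3 with 0.1 added to the reads, 29 from 10 reads, 4 from 50 reads, 1 over all 9 libraries, 2 with CIRI2 counts and 0 to 76 without a library. With forward-splice reads above 0 in every library, chosen after seeing the data, limma called 0 circles (354 at an unadjusted p under 0.05).

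Direction turned for the Reps1 circle, at 0.0192 with CIRI2 counts and 0.0904 within the shared flow cell on the log2 scale. The Map2k1 host stood at 0.000195 with CIRI2 counts and 0.00266 within the shared flow cell, and the Reps1 host at 0.0164 there. The cause was not tested. Of the other values of named features, 1561 host values, 1093 circle values and 265 usage values kept their direction and their side of the threshold. In the same direction, 29 host values, 103 circle values and 76 usage values no longer passed, and 35 host values and 66 circle values newly passed. Scaling by mapped reads moved the median log2 fold change of all circles to 0.153, beside 0.0301, and that of all hosts to 0.190, beside 0.0147. The shallowest library held 1516772 back-splice reads, so differences in circles of few reads were not detectable at this depth unless many-fold.

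With the replicate block there were 3 circle calls, all among the 19, 9 host calls, 11 usage calls and 0 circular share calls by limma (390 at an unadjusted p under 0.05). Deviations of same-numbered libraries correlated at 0.0444, 0.0942 and 0.0176, and those of different-numbered libraries at -0.071 to 0.0328. These values do not decide whether the numbers pair the libraries, which were treated as unpaired.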
